A study of Homo sapiens with 12 samples.

Results

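The integrated stress response and its central transcription factor ATF4 were followed through 39 genes in HGC-27 cells, a human gastric cancer cell line. The genes were listed by name, as ATF4, its partner factors and its known targets, and were found in the expression table by Ensembl identifier. All 39 were present among 20345 rows, and all 39 had a mean of at least 1 FPKM (the fragments of a gene per kilobase of its length, relative to all mapped fragments of the library), the limit that left 11225 rows to test. They comprised 10 stress factors and regulators, 7 stress effectors and secreted factors, 8 enzymes of amino acid and one-carbon synthesis, 5 amino acid transporters and 9 genes of tRNA charging and export.

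Total RNA was sequenced as 12 libraries in 4 groups of 3. WT cells and cells labelled TEAD4KO were each profiled untreated and after GLUP. The WT samples carry no genotype tag and are HGC-27 cells for which the labels state no edit. The TEAD4KO samples are HGC-27 cells described as a knockout of TEAD4, which binds DNA at the end of the Hippo pathway with YAP and TAZ as co-activators. How the knockout was made, and whether it was 1 clone, is not given in the sources used here. GLUP is a cyclic peptide made to bind TEAD4 and to bring TEAD4 molecules together, and the study's methods name the storage buffer of the peptide as the control. The design asks what GLUP changes in these cells and whether the change depends on TEAD4. The study's methods call the RNA replicates biological without saying how they were kept apart. The p-values rest on the spread between libraries within groups, pooled over the 4 groups and moderated across genes.

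The integrated stress response starts with kinases that phosphorylate the translation factor eIF2 when amino acids run short, proteins misfold in the endoplasmic reticulum, heme is lacking or a virus is present. General translation then slows while the ATF4 message is translated better, so that ATF4 protein can rise without a change in its transcript. ATF4 pairs with C/EBP factors, binds C/EBP-ATF response elements and raises genes for amino acid uptake, amino acid synthesis and tRNA charging. DDIT3 (CHOP), TRIB3 and CHAC1 are among its targets under lasting stress, and PPP1R15A (GADD34) reverses the phosphorylation of eIF2.

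The promoters of the members were searched for that response element, to show which of them carry it at the start site. RefSeq windows (GRCh38.p14) of 250 bases before to 50 bases after the start were on hand for 34 members. EIF4EBP1, NUPR1, PSPH, PYCR1 and SHMT2 had no window. The letters TGATGNAA, read on either strand (TTNCATCA in reverse), were in 9 of the 34 windows (26.47%) and in 1003 of 27305 windows of all genes (3.67%). A match is a description of the letters and not a measured binding site. The matches are shown with up to 10 bases on either side, on the strand of the gene, with the motif in capitals.
ATF3: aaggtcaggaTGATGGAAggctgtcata
CHAC1: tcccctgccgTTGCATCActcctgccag
ASNS: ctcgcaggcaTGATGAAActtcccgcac
SLC3A2: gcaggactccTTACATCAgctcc
SLC7A1: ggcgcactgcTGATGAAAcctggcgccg
AARS1: tttctcgcagTTGCATCAgccaagttag
MARS1: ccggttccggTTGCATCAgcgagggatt
NARS1: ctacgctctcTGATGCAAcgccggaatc
TARS1: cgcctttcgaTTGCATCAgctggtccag

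Exact matches of these stretches placed them on GRCh37. The ATF3 stretch lay upstream of the gene at chr1:212738548-212738575 (plus strand). The SLC3A2 stretch overlapped a coding exon of an annotated transcript at chr11:62649198-62649220 (plus strand). The others overlapped untranslated exons of annotated transcripts, among them CHAC1 at chr15:41245450-41245477 (plus strand) and ASNS at chr7:97501771-97501798 (minus strand). SLC7A1 was at chr13:30169801-30169828 (minus strand), AARS1 at chr16:70323579-70323606 (minus strand) and MARS1 at chr12:57881837-57881864 (plus strand). NARS1 was at chr18:55289037-55289064 (minus strand) and TARS1 at chr5:33441063-33441090 (plus strand). TRIB3, DDIT3 and SLC1A5 were among the 25 members whose window did not hold these letters. The TEAD element CATTCC, read on either strand, was in the windows of XPOT and GDF15, 2 of 34 (5.88%), against 14.05% of all windows.

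The TEAD4 transcript was not lower in the libraries labelled TEAD4KO. It stood at 25.8, 24.4 and 25.01 FPKM in untreated WT, 30.1, 27.7 and 27.2 in untreated TEAD4KO, 23.7, 22.9 and 23.8 in GLUP-treated WT and 27.8, 29.4 and 26.02 in GLUP-treated TEAD4KO. With GLUP it was higher under the TEAD4KO label (log2 fold change 0.23 ± 0.06 (SE), adjusted p = 0.0479, limma), and untreated it differed by 0.17 ± 0.06 (adjusted p = 0.135). The transcript level does not show a loss of TEAD4, and TEAD4 protein, which could show it, was not measured here. Every direction below is that of the libraries labelled TEAD4KO.

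Summed FPKM lay between 375361 and 423757 per library, and the number of reads behind each value is unknown. Rows at 0 made up 21.1% to 22.3% of the table in WT libraries and 23.7% to 25.5% in TEAD4KO libraries. On the first principal component (39.7% of the variance) TEAD4KO GLUP replicate 16, at -5.26, lay within the WT range of -16.2 to -3.71, and TEAD4KO untreated replicate 1 was at -0.96, while the other TEAD4KO libraries were at 9.91 to 19.8. Both libraries stand apart from their groups, and counts are given with and without them. Of 5 epithelial markers, EPCAM, KRT18 and KRT19 were below 0.3 FPKM in every library, and CDH1 and KRT8 ranged from 2.04 to 9.13. Of the markers of other cell types, PTPRC, CD3E, CD68, VWF and ALB were at 0.43 FPKM or lower in every library. COL1A1 was at 155 to 304, and PECAM1 was not found among the rows by its symbol. Of 3 mesenchymal markers, VIM was at 1238 to 1704 FPKM, FN1 had a mean of at least 1 FPKM and CDH2 had a mean under 1 FPKM. In bulk RNA, fewer cells of a type and less RNA per cell cannot be told apart.

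Expression of the pathway in untreated WT cells covered a wide range. ATF4 itself was the most abundant member, at 184 ± 25.1 FPKM (SD, n = 3), level with PSAT1 at 184 ± 5.42. PSAT1 makes phosphoserine in serine synthesis. The lowest members were CHAC1, which breaks down glutathione, at 3.36 ± 0.415 and SESN2, a stress-induced brake on mTORC1, at 3.54 ± 0.156. TRIB3, DDIT3, GDF15 and VLDLR were also under 10 FPKM, so that the factors and effectors of lasting stress were low beside the enzymes, transporters and tRNA synthetases, each of which was at 19.6 FPKM or more. Libraries of a group lay close together, with a median coefficient of variation over the 39 genes of 4.23% in untreated WT and 6.77% in untreated TEAD4KO. GDF15 varied most in untreated WT (28.1%) and JDP2 most in the other 3 groups (20.7% to 27.8%).

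**Figure D1:**
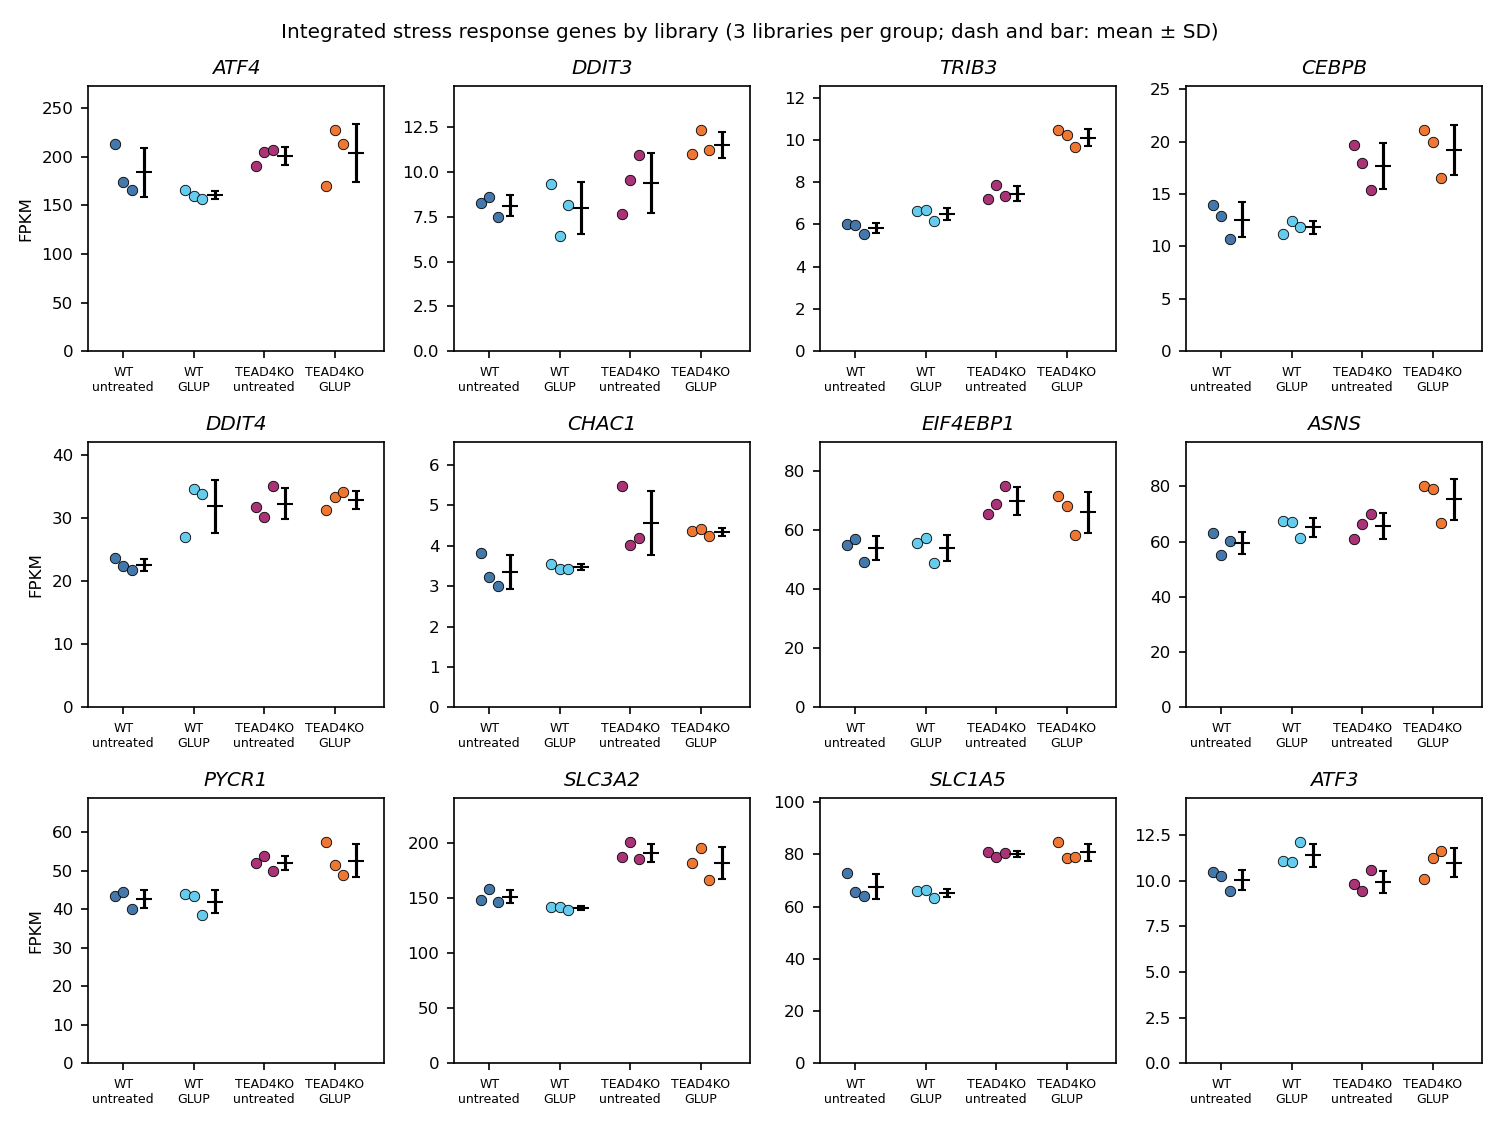
FPKM of 12 of the 39 genes in each of the 12 libraries, in 4 groups of 3 (WT and TEAD4KO label, untreated and GLUP), on linear axes that start at 0, with dash and bar for mean ± SD. TRIB3 rises over the 4 groups with no overlap between neighbours, DDIT4 is lowest in the 3 untreated WT libraries, and SLC3A2, SLC1A5, PYCR1 and CEBPB are higher under the TEAD4KO label with and without GLUP.

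In the main fit CEBPB, TRIB3, SLC3A2, PYCR1 and SLC1A5 were called higher in cells labelled TEAD4KO than in WT, both without and with GLUP. After GC and length correction, described below, none of them was called untreated, and PYCR1 was not called with GLUP. Without GLUP, 7 of the 39 members were higher in TEAD4KO than in WT at an adjusted p under 0.05 (limma) and 0 were lower, against 5.42% of all rows tested in either direction, 4.92% higher and 0.499% lower. The 7 were DDIT4, CEBPB, EIF4EBP1, SLC3A2, TRIB3, PYCR1 and SLC1A5, with rises of 1.19-fold to 1.41-fold. With GLUP, 6 members were higher and 0 were lower, against 5.84% of rows in either direction, 4.91% higher and 0.935% lower. The 6 were CEBPB, TRIB3, DDIT3, SLC3A2, PYCR1 and SLC1A5, with rises of 1.23-fold to 1.57-fold. The calls had 5 genes in common, which is 5 of the 7 untreated and 5 of the 6 with GLUP, and 0 members reached a 2-fold limit in either, against 0.0356% and 0.0535% of rows.

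Most other members did not pass the threshold. The median log2 fold change of the 39 members was 0.13 untreated and 0.08 with GLUP, beside 0.02 and -0.0039 over all rows tested. It was above 0 for 26 and 31 members, against 55.5% and 49.2% of all rows. With quantile normalization the median came to 0.03 and 0.0020, beside -0.014 and -0.010 over all rows. In that setting 21 and 20 members were above 0, against 46.6% and 47.5% of rows. After GC and length correction 29 and 33 members were above 0, against 49.7% and 51.7% of rows. The 3 libraries of each group did not overlap for 13 members that were higher (33.3%) and 2 that were lower untreated, against 18.3% and 7.47% of all rows. With GLUP this held for 14 members that were higher (35.9%) and 2 that were lower, against 16.7% and 12.9%. At an unadjusted p under 0.05, 15 and 16 members passed (38.5% and 41.0%), against 21.7% and 23.9% of rows.

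**Figure D2:**
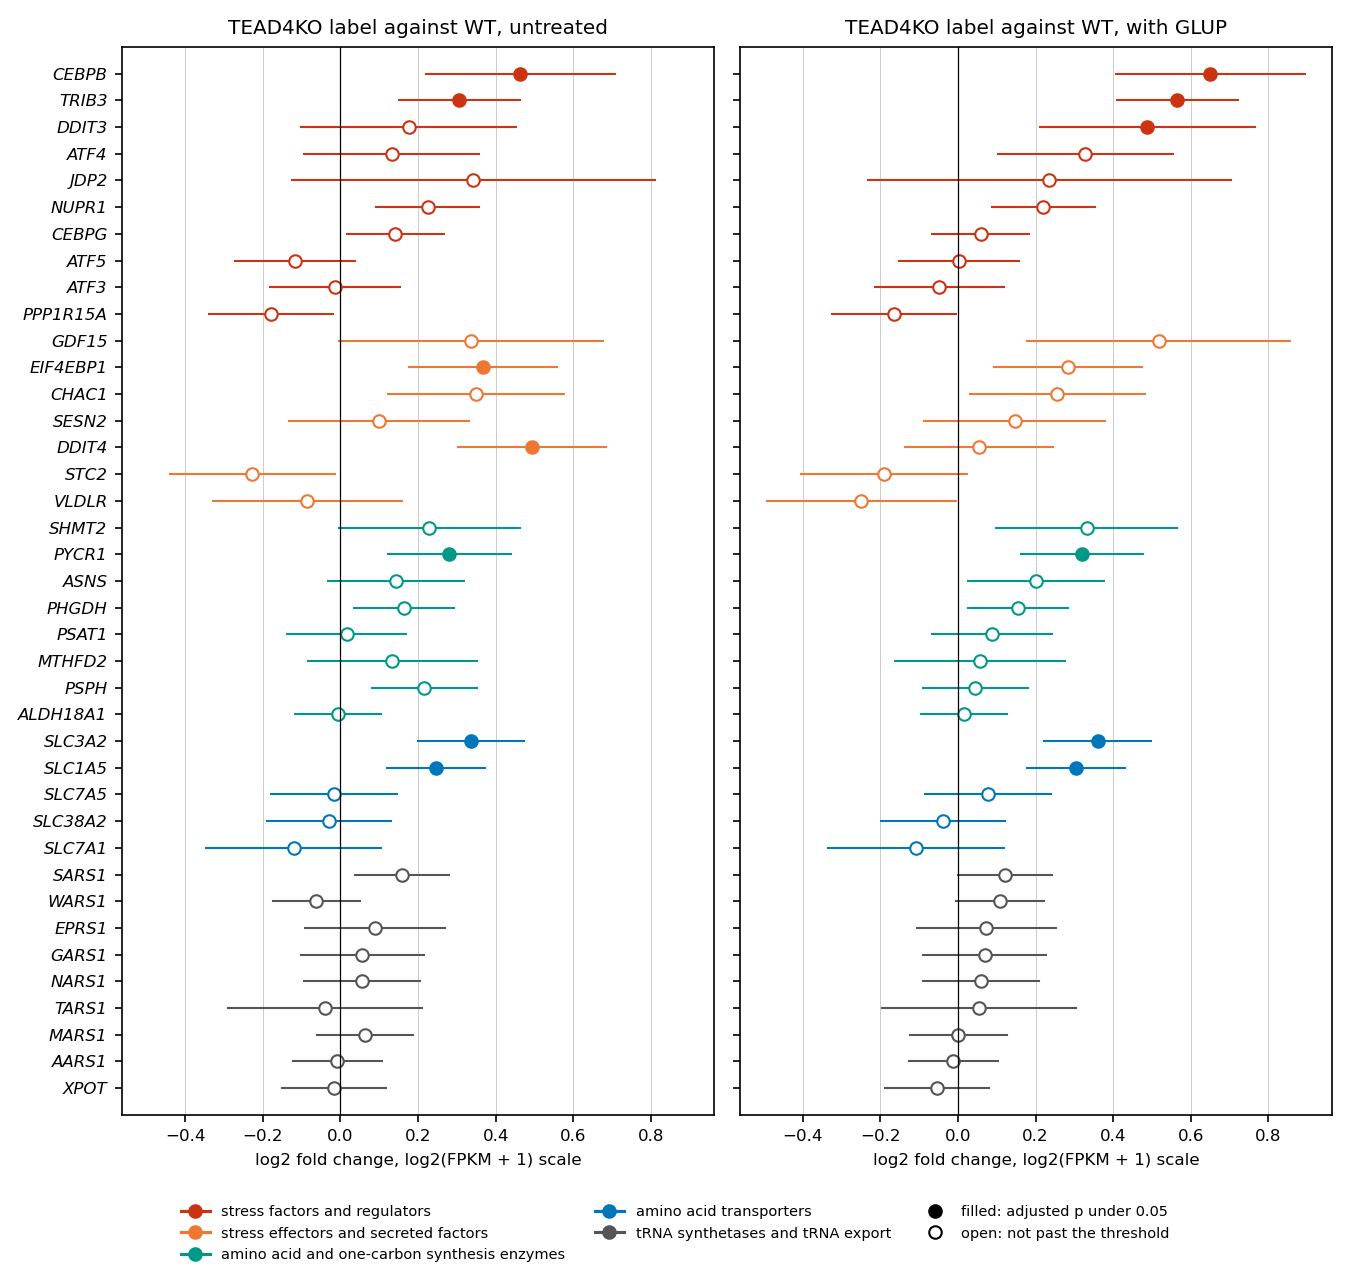
Log2 fold change of TEAD4KO-labelled against WT libraries on the log2(FPKM + 1) scale, with 95% confidence intervals, for the 39 genes by role, untreated (left) and with GLUP (right). Filled points, adjusted p under 0.05, are 7 on the left and 6 on the right, all above 0, and the tRNA synthetases lie close to 0 in both panels.

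Among the 10 stress factors and regulators, 2 were called higher untreated and 3 with GLUP, beside the 4.92% and 4.91% of rows that were called higher. ATF4 (ENSG00000128272, plus strand of chromosome 22, 39915700 to 39918688 on GRCh37) had 213, 174 and 166 FPKM in untreated WT and 190.0, 205 and 207 in untreated TEAD4KO, and 166, 160.0 and 157 against 170.2, 227 and 213 with GLUP. The untreated groups overlapped, and the GLUP-treated groups did not. Its log2 fold change was 0.13 ± 0.10 (adjusted p = 0.504) untreated and 0.33 ± 0.10 (adjusted p = 0.0814) with GLUP, and neither passed the threshold.

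CEBPB, a C/EBP factor that pairs with ATF4, had the largest log2 fold change between the labels in GLUP-treated cells. It stood at 14.005, 12.9 and 10.8 FPKM in untreated WT against 19.7, 17.97 and 15.4 in untreated TEAD4KO, and at 11.2, 12.4 and 11.8 against 21.1, 20.01 and 16.5 with GLUP. Every TEAD4KO library was above every WT library of its treatment. The log2 fold change was 0.46 ± 0.11 untreated (adjusted p = 0.0321) and 0.65 ± 0.11 with GLUP (adjusted p = 0.00519).

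TRIB3, a pseudokinase that ATF4 and CHOP induce and that in turn restrains ATF4, separated all 4 groups. Its values were 5.998, 5.96 and 5.56 FPKM in untreated WT, 6.65, 6.67 and 6.18 in GLUP-treated WT, 7.19, 7.85 and 7.34 in untreated TEAD4KO and 10.5, 10.2 and 9.64 in GLUP-treated TEAD4KO. No library of a group reached the range of the next. TRIB3 was higher under the TEAD4KO label by 0.31 ± 0.07 untreated (adjusted p = 0.0276) and by 0.57 ± 0.07 with GLUP (adjusted p = 0.00127).

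DDIT3, which encodes the pro-apoptotic factor CHOP, was called with GLUP and not without it. It was at 8.28, 8.63 and 7.47 FPKM in untreated WT against 7.66, 9.54 and 10.95 in untreated TEAD4KO, where the ranges overlapped, and at 9.34, 6.43 and 8.18 against 10.98, 12.3 and 11.2 with GLUP, where they did not. The log2 fold change was 0.18 ± 0.13 (adjusted p = 0.460) and 0.49 ± 0.13 (adjusted p = 0.0416). The difference between these values, tested as the interaction, was 0.31 ± 0.18 (unadjusted p = 0.109, adjusted p = 0.9998), so the label difference was not shown to change with GLUP.

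The remaining factors of this group did not pass the threshold in either comparison. PPP1R15A was at 21.7, 23.7 and 20.5 FPKM in untreated WT against 20.6, 18.2 and 19.1 in untreated TEAD4KO, and at 22.7, 22.5 and 22.7 against 21.6, 18.6 and 20.2 with GLUP. Its log2 fold changes of -0.18 ± 0.07 (adjusted p = 0.178) and -0.17 ± 0.07 (adjusted p = 0.198) had the sign opposite to that of CEBPB and TRIB3. NUPR1, a small chromatin-associated stress protein, lay just outside the threshold in both, at 0.22 ± 0.06 (adjusted p = 0.0516) and 0.22 ± 0.06 (adjusted p = 0.0539), with no overlap of the groups. ATF3 and ATF5, both bZIP factors induced with ATF4, differed by -0.01 and -0.12 untreated and by -0.05 and 0.00 with GLUP. CEBPG, which forms dimers with ATF4, differed by 0.14 and 0.06. JDP2, a bZIP repressor, had the widest intervals, -0.13 to 0.81 untreated and -0.23 to 0.70 with GLUP, and its libraries ranged from 12.8 to 18.3 FPKM within untreated WT alone.

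The 7 stress effectors and secreted factors had 2 called members untreated and 0 with GLUP (5.42% and 5.84% of rows), and with GLUP 4 of the 7 had an unadjusted p under 0.05 (23.9% of rows). DDIT4 (REDD1), which inhibits mTORC1 through the TSC complex, was at 23.6, 22.3 and 21.8 FPKM in untreated WT against 31.6, 30.2 and 35.01 in untreated TEAD4KO. With GLUP the values were 27.02, 34.6 and 33.9 in WT and 31.3, 33.3 and 34.02 in TEAD4KO. The 3 untreated WT libraries were the lowest of all 12, and the other 9 lay between 27.0 and 35.0. The log2 fold change between labels was 0.49 ± 0.09 untreated (adjusted p = 0.00743) and 0.05 ± 0.09 with GLUP (adjusted p = 0.747). Their difference was -0.44 ± 0.13 (unadjusted p = 0.00360), and it did not hold after adjustment over all rows (adjusted p = 0.9998).

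EIF4EBP1, the repressor 4E-BP1 of cap-dependent translation, stood at 55.01, 56.98 and 49.2 FPKM in untreated WT against 65.5, 68.7 and 74.8 in untreated TEAD4KO, and at 55.5, 57.3 and 48.9 against 71.6, 67.9 and 58.2 with GLUP. No TEAD4KO library was as low as the highest WT library of its treatment. The rise was 0.37 ± 0.09 untreated (adjusted p = 0.0303), while the value with GLUP was 0.28 ± 0.09 (adjusted p = 0.0767). The replicate number was used as a block, with libraries 14 to 16 treated as paired across the labels, although that pairing is not established. In this setting EIF4EBP1 (limma adjusted p = 0.0406) and GDF15 (adjusted p = 0.0291) passed the threshold with GLUP as well. It called 8 members, against 9.48% of rows.

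GDF15, a secreted stress hormone of the TGF-beta family, was at 4.62, 6.10 and 3.45 FPKM in untreated WT against 7.14, 6.19 and 5.11 in untreated TEAD4KO, and at 4.16, 5.19 and 5.92 against 7.84, 7.73 and 7.41 with GLUP. It had the third largest log2 fold change with GLUP, 0.52 ± 0.16 (adjusted p = 0.0699), without a call. CHAC1 was at 3.82, 3.23 and 3.02 FPKM in untreated WT, 5.48, 4.03 and 4.19 in untreated TEAD4KO, 3.56, 3.44 and 3.43 in GLUP-treated WT and 4.38, 4.42 and 4.24 in GLUP-treated TEAD4KO. The TEAD4KO libraries lay above the WT libraries in both treatments, yet the log2 fold changes of 0.35 ± 0.11 (adjusted p = 0.0709) and 0.26 ± 0.11 (adjusted p = 0.162) did not pass the threshold.

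The lowest log2 fold changes of this group belonged to STC2, a secreted glycoprotein of stressed cells, and VLDLR, a lipoprotein receptor. STC2 was at 14.7, 15.3 and 15.2 FPKM in untreated WT against 14.7, 11.8 and 11.8 in untreated TEAD4KO, and at 15.5, 14.7 and 15.6 against 13.003, 11.6 and 15.3 with GLUP. VLDLR was at 5.24, 5.41 and 5.36 FPKM against 5.19, 4.92 and 4.81 untreated, and at 5.46, 6.02 and 5.22 against 4.42, 3.63 and 5.69 with GLUP. In each TEAD4KO group of STC2, and for VLDLR with GLUP, the library that stood apart from its group was the highest and reached the WT range. The values were -0.23 ± 0.10 and -0.19 ± 0.10 for STC2 (adjusted p = 0.200 and 0.257) and -0.09 ± 0.11 and -0.25 ± 0.11 for VLDLR (adjusted p = 0.705 and 0.201). With GC and length correction VLDLR came to 0.03 untreated, where its direction turned, and to -0.11 with GLUP.

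Of the 8 enzymes of amino acid and one-carbon synthesis, 1 was called in each comparison (5.42% and 5.84% of rows). A log2 fold change above 0 was found for 7 and 8 of them, against 55.5% and 49.2% of rows. PYCR1, the mitochondrial enzyme that completes proline synthesis, was at 43.5, 44.5 and 40.1 FPKM in untreated WT against 52.2, 53.8 and 50.1 in untreated TEAD4KO, and at 43.97, 43.5 and 38.6 against 57.5, 51.7 and 49.01 with GLUP. The groups did not overlap. PYCR1 rose by 0.28 ± 0.07 (adjusted p = 0.0414) and 0.32 ± 0.07 (adjusted p = 0.0231).

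ASNS, asparagine synthetase and a classical ATF4 target, was not called. It stood at 63.004, 55.2 and 60.1 FPKM in untreated WT against 60.8, 66.4 and 69.96 in untreated TEAD4KO, and at 67.3, 66.98 and 61.2 against 80.02, 79.1 and 66.7 with GLUP, with overlap in both. Its log2 fold change was 0.14 ± 0.08 (adjusted p = 0.335) and 0.20 ± 0.08 (adjusted p = 0.158). PSPH, the last enzyme of serine synthesis, was at 19.98, 19.4 and 19.5 FPKM in untreated WT against 22.3, 22.4 and 24.3 in untreated TEAD4KO (log2 fold change 0.22 ± 0.06, adjusted p = 0.0632), and at 22.5, 21.5 and 20.4 against 21.4, 23.4 and 21.7 with GLUP (0.04 ± 0.06). SHMT2, which moves a one-carbon unit from serine to folate in mitochondria, differed by 0.23 ± 0.11 and 0.33 ± 0.11 (adjusted p = 0.240 and 0.0878). PHGDH and PSAT1, the first steps of serine synthesis, differed by 0.16 and 0.02 untreated, MTHFD2 of the folate cycle by 0.13, and ALDH18A1, which starts proline synthesis, by -0.01.

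The 5 amino acid transporters split by carrier. SLC3A2, the heavy chain (CD98) that brings several amino acid exchangers to the membrane, was at 149, 158 and 147 FPKM in untreated WT against 188, 201 and 186 in untreated TEAD4KO, and at 142, 142 and 139 against 182, 196 and 167 with GLUP. SLC1A5 (ASCT2), a carrier of glutamine and other neutral amino acids, was at 73.004, 65.7 and 64.2 FPKM against 81.03, 79.1 and 80.6 untreated, and at 66.1, 66.2 and 63.5 against 84.7, 78.8 and 79.1 with GLUP. For both genes every TEAD4KO library was above every WT library of its treatment. SLC3A2 rose by 0.34 ± 0.06 (adjusted p = 0.00994) and 0.36 ± 0.06 (adjusted p = 0.00571), and SLC1A5 by 0.25 ± 0.06 (adjusted p = 0.0294) and 0.30 ± 0.06 (adjusted p = 0.00947).

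SLC7A5 (LAT1), a light chain that pairs with SLC3A2, was at 166, 167 and 154 FPKM in untreated WT against 179, 149 and 154 in untreated TEAD4KO, and at 154, 151 and 141 against 156, 147 and 169 with GLUP. It differed by -0.02 ± 0.08 and 0.08 ± 0.08, with overlap in both. SLC7A1, the carrier of cationic amino acids, was at 30.8, 28.2 and 30.4 FPKM against 32.03, 24.4 and 26.1 untreated, and at 30.99, 29.3 and 31.1 against 27.8, 24.5 and 32.7 with GLUP. Its differences of -0.12 ± 0.10 (adjusted p = 0.546) and -0.11 ± 0.10 (adjusted p = 0.554) were not called, and with GC and length correction they came to -0.03 and, with the direction turned, 0.02. SLC38A2 (SNAT2), which takes up small neutral amino acids, differed by -0.03 and -0.04.

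None of the 9 genes of tRNA charging and export was called by limma in either comparison, with 1 and 0 at an unadjusted p under 0.05 (21.7% and 23.9% of rows). Their log2 fold changes ran from -0.06 (WARS1) to 0.16 (SARS1) untreated and from -0.06 (XPOT, the tRNA exporter) to 0.12 (SARS1) with GLUP. SARS1, seryl-tRNA synthetase, had the lowest p of these 9 genes untreated (limma unadjusted p = 0.0136, adjusted p = 0.115). For AARS1, alanyl-tRNA synthetase, the 95% interval of the difference was -0.12 to 0.11 untreated and -0.13 to 0.10 with GLUP. GARS1, EPRS1, MARS1, NARS1 and TARS1, which charge glycine, glutamate and proline, methionine, asparagine and threonine tRNAs, lay between -0.04 and 0.09 untreated. The 9 members with the ATF4 motif in their window had a median log2 fold change of 0.06 untreated and 0.05 with GLUP, beside 0.10 and 0.08 for the 25 without it.

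Leaving out the libraries that stand apart raised the counts. Without TEAD4KO untreated replicate 1 and TEAD4KO GLUP replicate 16, a setting added after seeing the data, 14 members were called untreated (12 higher, 2 lower) and 17 with GLUP (14 higher, 3 lower), against 19.9% and 27.8% of all rows. The members that were lower were STC2 and SLC7A1 in both and VLDLR with GLUP. In the other direction, leaving out WT untreated replicate 3, the library in which 24 of the 39 members were the lowest of their group, left 0 members called untreated and 1.06% of rows. With GLUP, 3 were called without WT GLUP replicate 16 and 12 without TEAD4KO GLUP replicate 16, against 1.75% and 17.4% of rows. CEBPB, TRIB3 and SLC3A2 with GLUP were called whichever of the 12 libraries was left out.

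Transcript length and GC content moved with the difference between the labels. Over 11077 rows, Spearman's rho of the log2 fold change with transcript length was -0.52 untreated and -0.48 with GLUP, and over the 39 members it was -0.52 and -0.53. With GC content it was 0.30 and 0.20 over the rows and 0.47 and 0.51 over the members. These are correlations across genes, which are not independent replicates and share the same libraries. The 8 members called in either comparison had reference transcripts of 827 to 2882 bases (median 1862), beside 827 to 9213 (median 2437) for the 39. Length was that of the annotated canonical transcript, 5291 bases for NUPR1, which need not be the length behind the FPKM.

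Once the dependence on GC content and length had been fitted and removed within each library, none of the 7 untreated calls remained. DDIT4 came to 0.37 (adjusted p = 0.0599), SLC3A2 to 0.23 (0.108) and EIF4EBP1 to 0.09 (0.627). The 1 member called was PPP1R15A, which was lower in TEAD4KO at -0.27 (adjusted p = 0.0456), against 1.75% of all rows. With GLUP 5 members were called after correction, against 3.8% of rows. TRIB3 at 0.49 (adjusted p = 0.00886), CEBPB at 0.44 (0.0243), SLC3A2 at 0.29 (0.0402) and SLC1A5 at 0.26 (0.0483) kept the call, NUPR1 gained it at 0.32 (0.0298), and DDIT3 and PYCR1 lost it. With the replicate block added to the correction, TRIB3, CEBPB, SLC3A2 and NUPR1 were called with GLUP and SLC1A5 was not (adjusted p = 0.0601). Correction turned the sign of 5 members untreated and 6 with GLUP, 0 of them called before it, and these included DDIT4 with GLUP (-0.04) and XPOT in both (0.05 and 0.03). The library trend and the TEAD4KO label cannot be told apart in this design.

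**Figure D3:**
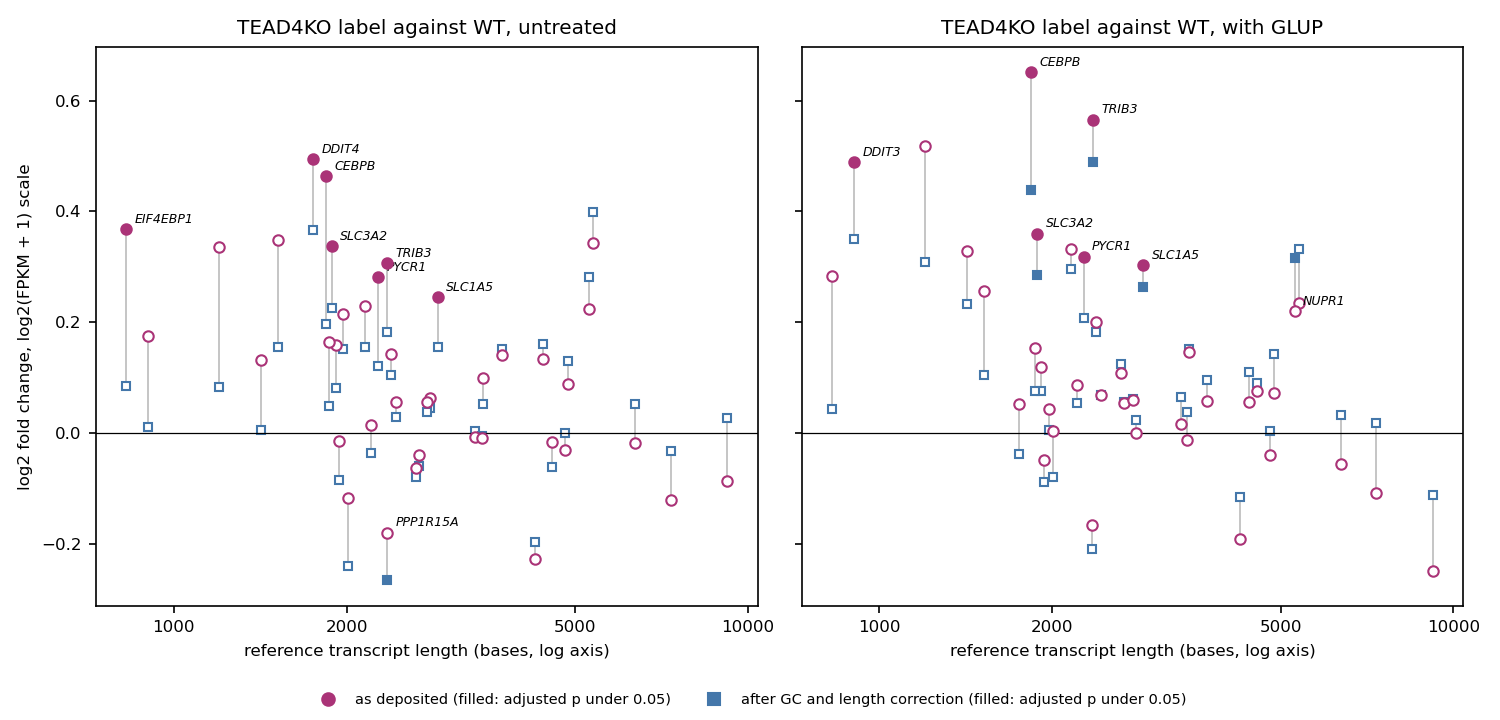
Log2 fold change of TEAD4KO-labelled against WT libraries for the 39 genes (vertical, log2(FPKM + 1) scale) by reference transcript length in bases (horizontal, log axis), untreated (left) and with GLUP (right). Circles are the deposited values and squares the values after GC and length correction, joined by a line for each gene and filled at an adjusted p under 0.05. EIF4EBP1, the shortest, drops close to 0 in both panels on correction, and on the right TRIB3, CEBPB, SLC3A2 and SLC1A5 stay filled.

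No member passed the adjusted threshold for GLUP against untreated in either cell background. In WT cells limma called 0 members, and 1 had an unadjusted p under 0.05, against 0.00891% and 3.43% of all rows. In TEAD4KO-labelled cells it called 0, and 4 had an unadjusted p under 0.05, against 0.0445% and 6.38% of rows. These shares depended on the fit. In WT, 8 members (20.5%) had an unadjusted p under 0.05 with only the groups compared, against 1256 of 11225 rows. With array weights 11 did (28.2%), against 1416 rows. In TEAD4KO the same settings gave 2 members against 297 rows and 3 against 401. In the main fit the median log2 fold change of the members was 0.03 in both backgrounds, beside 0.0088 and -0.02 over all rows. The groups did not overlap for 5 members that were higher and 3 that were lower in WT, against 10.2% and 7.16% of rows, and for 4 that were higher and 0 that were lower in TEAD4KO, against 2.85% and 3.98%. In simulated data of this design with 200 changed genes, 82.0% of genes changed 1.5-fold were called in the WT comparison. The share was 19.5% for the smallest change simulated. The simulated noise was independent between genes, and adjustment is stricter where fewer rows change. With 1 of 11225 rows called in the data, these shares do not give the sensitivity of the WT comparison.

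**Figure D4:**
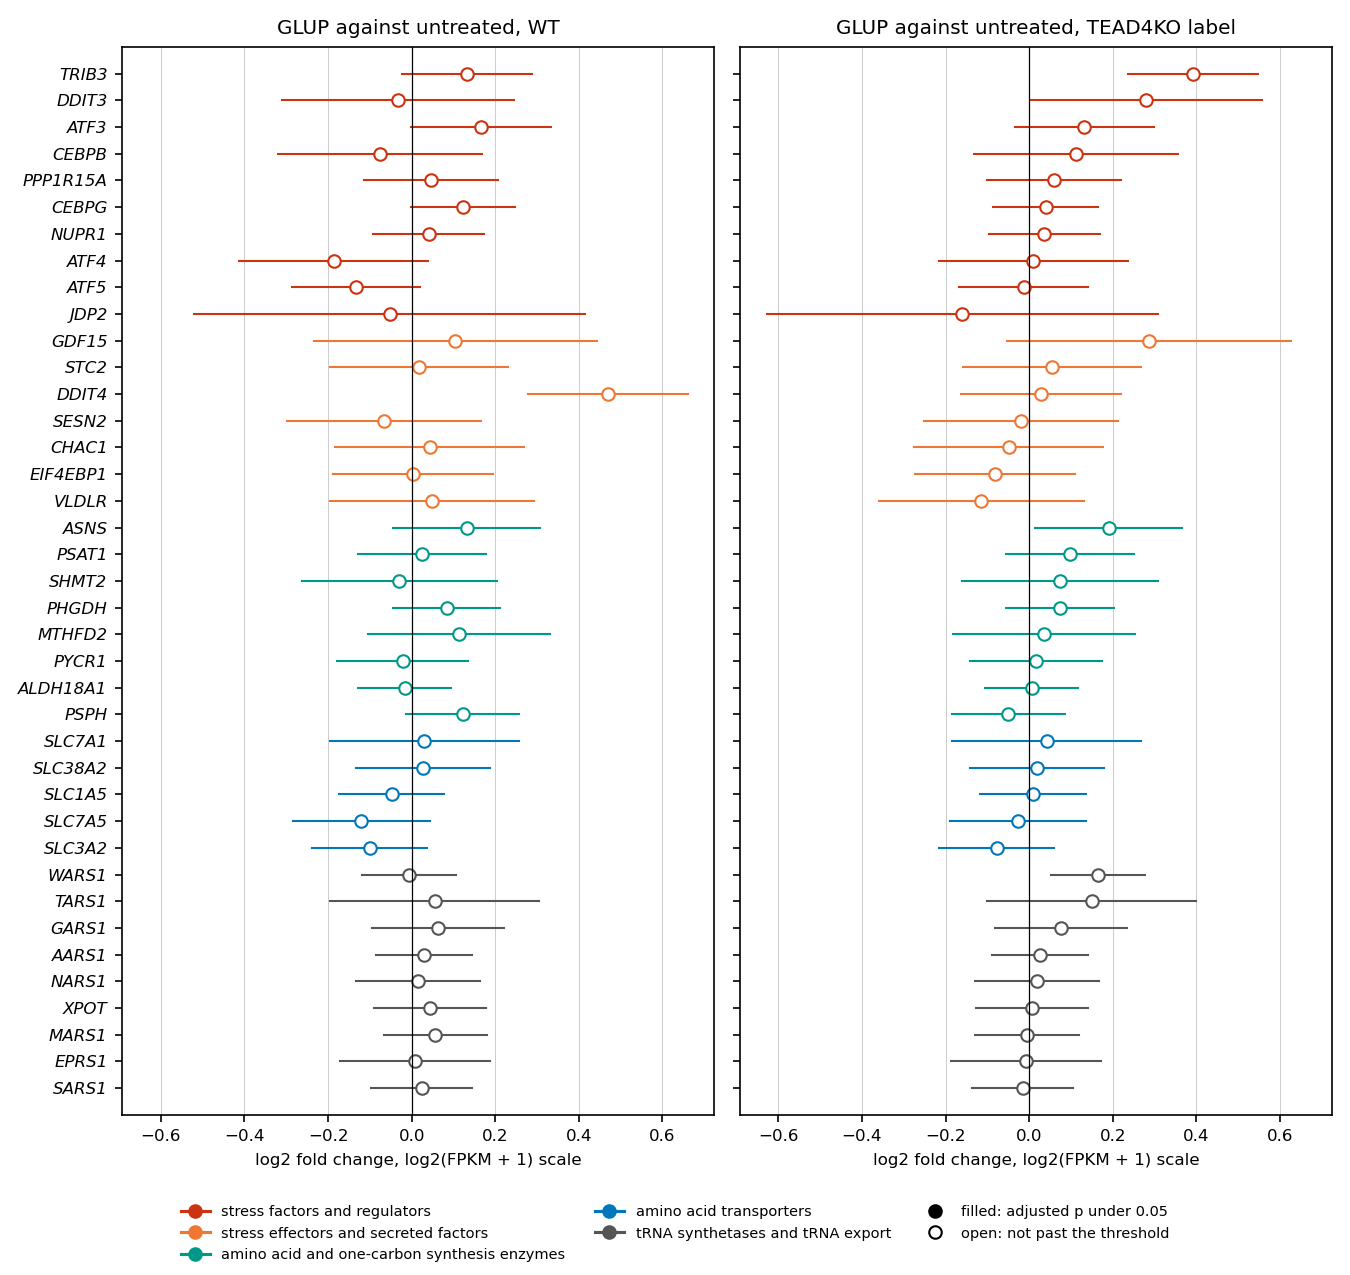
Log2 fold change of GLUP-treated against untreated libraries on the log2(FPKM + 1) scale, with 95% confidence intervals, for the 39 genes by role, in WT (left) and TEAD4KO-labelled cells (right). All points are open (adjusted p of 0.05 or more), with DDIT4 farthest right in WT and TRIB3 farthest right in TEAD4KO.

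In WT cells DDIT4 stood out, at 23.6, 22.3 and 21.8 FPKM untreated and 27.02, 34.6 and 33.9 with GLUP. Its log2 fold change of 0.47 ± 0.09 had an unadjusted p of 0.000132 and an adjusted p of 0.238, and the value in TEAD4KO cells was 0.03 ± 0.09. All 3 GLUP libraries were above the untreated ones in WT, and the groups overlapped in TEAD4KO. The interaction given above for DDIT4 is the test of that difference. With array weights DDIT4 passed the threshold in WT, and it was then the only member to do so. That setting called 61 of 11225 rows in WT, beside 1 in the main fit.

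In TEAD4KO cells TRIB3 stood out, at 7.19, 7.85 and 7.34 FPKM untreated and 10.5, 10.2 and 9.64 with GLUP. The log2 fold change was 0.39 ± 0.07 (unadjusted p = 0.000105, adjusted p = 0.118), against 0.13 ± 0.07 in WT. The interaction was 0.26 ± 0.10 (unadjusted p = 0.0242, adjusted p = 0.9998). Over both cell backgrounds TRIB3 was higher with GLUP in all 6 libraries than in the untreated libraries of the same label, with a value of 0.26 ± 0.05 and an adjusted p of 0.0543, just outside the threshold. It was called there with GC and length correction, with array weights and without the intensity trend. Those settings called 54, 37 and 28 of 11225 rows, beside 29 in the main fit.

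The other factors and effectors gave smaller values. ATF4 was at 213, 174 and 166 FPKM untreated and 166, 160.0 and 157 with GLUP in WT, where every GLUP library was below every untreated one by a narrow margin, and the log2 fold change was -0.19 ± 0.10 (unadjusted p = 0.0984, adjusted p = 0.999). In TEAD4KO cells the ATF4 value was 0.01 ± 0.10 and turned below 0 with array weights. ATF3 was at 10.4, 10.3 and 9.41 FPKM untreated and 11.1, 10.997 and 12.1 with GLUP in WT, and at 9.79, 9.41 and 10.6 and 10.1, 11.2 and 11.6 in TEAD4KO. Its log2 fold changes were 0.17 ± 0.08 and 0.13 ± 0.08, and over both backgrounds 0.15 ± 0.05 (unadjusted p = 0.0169, adjusted p = 0.531).

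ATF5 was at 13.97, 14.5 and 14.3 FPKM untreated and 11.5, 13.7 and 13.6 with GLUP in WT (-0.13 ± 0.07), and at 13.2, 13.01 and 13.005 and 13.3, 12.5 and 13.01 in TEAD4KO (-0.01 ± 0.07). DDIT3 and GDF15 gave -0.03 ± 0.13 and 0.10 ± 0.16 in WT and 0.28 ± 0.13 and 0.29 ± 0.16 in TEAD4KO, where the groups did not overlap for either gene (adjusted p = 0.777 and 0.835). CHAC1 gave 0.04 ± 0.11 and -0.05 ± 0.11, with overlap in both. JDP2 was at 18.3, 12.9 and 12.8 FPKM untreated and 18.4, 10.5 and 13.8 with GLUP in WT, and at 16.6, 23.3 and 16.6 and 20.2, 18.8 and 11.9 in TEAD4KO, the widest spread of the factors. Its log2 fold changes were -0.05 ± 0.22 and -0.16 ± 0.22.

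Genes of amino acid supply and tRNA charging gave no call with GLUP either. ASNS had log2 fold changes of 0.13 ± 0.08 in WT and 0.19 ± 0.08 in TEAD4KO, and over both backgrounds 0.16 ± 0.06 (unadjusted p = 0.0148, adjusted p = 0.520). SLC3A2 had -0.10 ± 0.06 and -0.08 ± 0.06, and in WT its GLUP libraries lay below the untreated ones. WARS1, tryptophanyl-tRNA synthetase, had 0.17 ± 0.05 in TEAD4KO (unadjusted p = 0.00725, adjusted p = 0.564) and -0.01 ± 0.05 in WT. PSPH, VLDLR and DDIT4 had the lowest interaction values, -0.17 ± 0.09, -0.16 ± 0.16 and -0.44 ± 0.13, and no member passed the adjusted threshold for the interaction (limma, 0 called and 3 at an unadjusted p under 0.05, against 0.00891% and 2.53% of rows). Over both backgrounds 0 members were called and 5 had an unadjusted p under 0.05 (TRIB3, DDIT4, ASNS, ATF3 and WARS1), against 0.258% and 7.14% of rows.

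The genes around the pathway were examined through 5 further lists. With GLUP, 0 genes of any list were called in either background, with 0 to 1 at an unadjusted p under 0.05 per list in WT and 0 to 2 in TEAD4KO, beside 3.43% and 6.38% of all rows. Between the labels, where 5.42% of all rows were called untreated and 5.84% with GLUP, the 21 genes of the eIF2 kinases and eIF2 machinery had 0 calls untreated and 1 with GLUP, EIF2AK2, the kinase PKR that senses double-stranded RNA, which was lower (-0.37 ± 0.10, adjusted p = 0.0459). Of 22 other genes of the unfolded protein response, SDF2L1, a chaperone partner in the endoplasmic reticulum, was higher untreated (0.66 ± 0.12, adjusted p = 0.00897) and with GLUP (0.68 ± 0.12, adjusted p = 0.00646). XBP1, the factor spliced by IRE1, was higher with GLUP (0.38 ± 0.09, adjusted p = 0.0349). The median of that list was -0.03 untreated and -0.0053 with GLUP.

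Of 18 other reported ATF4 targets that passed the filter on low values, 1 was called untreated and 3 with GLUP, all higher. SQSTM1, the autophagy receptor p62, rose by 0.40 ± 0.08 (adjusted p = 0.0106) and 0.45 ± 0.08 (adjusted p = 0.00460). HMOX1, heme oxygenase, rose by 0.54 ± 0.08 with GLUP (adjusted p = 0.00329), and FGF21, a secreted metabolic hormone, by 0.47 ± 0.13 (adjusted p = 0.0476). SQSTM1 and HMOX1 are also known targets of NRF2. Of 17 other serine, one-carbon and folate enzymes, PYCR3, a cytosolic relative of PYCR1, was higher untreated (0.42 ± 0.09, adjusted p = 0.0164) and TYMS, thymidylate synthase, with GLUP (0.26 ± 0.05, adjusted p = 0.0141). Of 14 other genes of cytosolic tRNA charging, AIMP2, a scaffold of the synthetase complex, was higher with GLUP (0.39 ± 0.10, adjusted p = 0.0333) and 0 were called untreated, where 7 had an unadjusted p under 0.05 (21.7% of rows). After GC and length correction SQSTM1, HMOX1, SDF2L1 and TYMS kept their calls with GLUP, and EIF2AK2, XBP1, FGF21 and AIMP2 did not, nor did any of the 3 called untreated. With the replicate block as well, SDF2L1 (adjusted p = 0.0529) and TYMS (adjusted p = 0.0580) were not called with GLUP, and AIMP2 and XBP1 were. YARS1, also of the tRNA charging list, was then called lower (-0.25, limma adjusted p = 0.0462).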

How the data were processed

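RNA-seq of HGC-27 cells was deposited by the authors as FPKM per Ensembl gene, 1 column per library, with no pooling. The submitters' processing notes name HISAT2, Cufflinks, RSEM and the build hg19, without versions or roles. Since FPKM is scaled to the library total, a few abundant genes can shift the others, and length or GC trends between libraries stay in the values. No step of whole reads was found below 0.1 FPKM (the most common ratio between libraries held at most 0.906% of rows), so depth is unknown. Column names gave the sample titles (0 left unmapped), and 0 pairs of columns were identical.

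Values were analysed as log2(FPKM + 1), which understates changes of low genes, for rows averaging 1 FPKM or more over the libraries. One model of 4 groups was fitted to the 12 libraries with limma 3.58.1 in R 4.3.3 (eBayes with intensity trend, no covariate), two-sided, with Benjamini-Hochberg adjustment over all 11225 rows within each of 6 comparisons. A call needed an adjusted p under 0.05. A permutation test of 3 against 3 libraries cannot go below p = 0.1 and was not used. Symbols were found for 96.52% of rows, and positions, lengths and GC content came from GENCODE 44 lifted to GRCh37 (98.7% of rows tested). The fit was tested on simulated data with 200 of 11225 genes changed.

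Values per library are given for members called in any comparison, for the 3 highest and 3 lowest members of each comparison, and for ATF4, DDIT3, ASNS and CHAC1. The members and lists were chosen with earlier results of these data known. Pairing was checked by correlating how same-numbered libraries deviated from their groups. Libraries numbered 14, 15 and 16 in the titles gave 0.106, 0.152 and 0.336 between labels and were treated as paired. Libraries 1, 2 and 3 gave -0.0569, 0.203 and -0.0149 and were not. Libraries of different number and the same treatment gave -0.245 to 0.182. That range holds the values of libraries 14 and 15, while that of library 2 lay above it, so the pairing is not established. The main calls use no pairing. Alternatives were a pseudocount of 0.1, no filter, a mean of at least 5 FPKM, median-ratio scaling, quantile normalization, no trend, array weights, only the groups compared, a 2-fold limit, the replicate block, GC and length correction (splines with 5 degrees of freedom) with and without the block, and leaving out each library. Leaving out both libraries that stand apart was added after seeing the data.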

Additional observations from a re-analysis of the deposited data

How the results depend on the processing

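Between the labels, the number of members called (7 untreated, 6 with GLUP) depended on the processing. Untreated it was 4 with no filter, with quantile normalization, without the intensity trend and with array weights, 3 in a fit of only the groups compared, 2 with median-ratio scaling, 1 with GC and length correction, 2 with that correction and the replicate block, 0 with the 2-fold limit and 14 without the libraries that stand apart. In the same order the settings called 394 of 17969 rows with no filter, and then 603, 467, 694, 382, 453, 196, 136, 4 and 2231 of 11225. The main fit called 608. With GLUP it was 15 with array weights, 4 with GC and length correction in the replicate block, 0 with the 2-fold limit and 17 without the libraries that stand apart. In the same order 2487, 461, 6 and 3121 of 11225 rows were called, beside 656 in the main fit. The replicate block alone gave 8 members in each, with CHAC1 added untreated, where the replicate numbers were not treated as paired. It called 849 rows untreated and 1064 with GLUP. Leaving out each library gave 0 to 8 members untreated and 3 to 12 with GLUP. Over all rows it gave 119 to 1186 and 196 to 1952. For GLUP against untreated, 1 member was called in WT with array weights, and over both backgrounds 1 without the trend, with array weights and with GC and length correction, while leaving out each library gave 0 to 0 in every GLUP comparison and in the interaction.

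Single values were recomputed for the members called and the 3 highest and 3 lowest in each comparison, and for ATF4, DDIT3, ASNS and CHAC1. Of these, 1261 kept their direction and side of the threshold, 85 no longer passed it, 24 came to pass it and 25 changed sign, all in GLUP comparisons or the interaction. Over all 39 members, 13 untreated and 17 with GLUP changed sign between the labels under at least 1 setting, 0 of them called. CHAC1 in TEAD4KO came to 0.0086 with GC and length correction and 0.079 without the libraries that stand apart, and in the interaction to 0.036 without them. Over both backgrounds it came to 0.0088 with array weights, 0.034 with the correction and 0.061 without those libraries. ATF4 in TEAD4KO came to -0.071 with array weights and -0.068 without the libraries that stand apart. Leaving out each library gave DDIT3 in WT from -0.14 to 0.097 and CHAC1 in WT from -0.013 to 0.12. In TEAD4KO it gave JDP2 from -0.30 to 0.064, VLDLR from -0.25 to 0.013, EIF4EBP1 from -0.14 to 0.0040, CHAC1 from -0.12 to 0.065 and ATF4 from -0.074 to 0.13. It gave CHAC1 from -0.17 to 0.022 in the interaction, and over both backgrounds JDP2 from -0.20 to 0.0055 and CHAC1 from -0.037 to 0.054. The cause of these changes was not tested. Depth is unknown, and the pooled spread between the libraries within groups sets the precision.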
